A study of Homo sapiens with 15 samples.

Results

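The antisense arm of this experiment asked what A549 cells, a human lung adenocarcinoma line, expressed when a single microRNA (miRNA) was blocked. The cells received a locked nucleic acid antisense oligonucleotide (antagomir) at 20 nM, or a precursor oligonucleotide of the same miRNA at the same dose, and total RNA was taken 24 h later. Each 2-colour array carried the precursor (overexpressing) cells in Cy5 and the antagomir (suppressed) cells in Cy3. The miR-181d antagomir cells were the Cy3 channel of 3 arrays, of 15 arrays in all, and were set against the Cy3 channel of the other 12, which held antagomirs of miR-574-3p, miR-766, miR-565 and miR-629* (3 arrays each). Every group therefore carried an antagomir, and no mock-transfected or untreated cells entered the comparison. It shows how the miR-181d antagomir cells differed from cells given other antagomirs, and a response that all antagomirs share is not visible in it. The labels do not say whether replicates were separate cultures, so p-values measure the spread between these arrays, which may be technical.

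miRNAs guide Argonaute proteins to messenger RNAs, mostly through their seed, the bases 2 to 8 from the 5′ end, and lower the stability and translation of those messages. An antagomir pairs with the mature miRNA and keeps it from its targets, so that targets which the cell's own miRNA holds down may be released. The miR-181 family is best known from lymphocyte development and from leukaemia, and members of it have been reported to target signalling and survival genes. Because the family shares its seed, the sequences are shown first, from RefSeq (GRCh38.p14), with the seed in capitals. miR-181c-5p and miR-181d-5p come from neighbouring places on chromosome 19 (chr19:13874725-13874746 and chr19:13874910-13874932, plus strand). For miR-181a-5p and miR-181b-5p the places listed are on chromosome 1 (chr1:198859108-198859130 and chr1:198858925-198858947, minus strand). Only 1 place is listed for each sequence, so any further copy is not shown. Of the compared miRNAs, miR-574-3p and miR-629* (miR-629-3p in RefSeq) follow the 4 family members.
hsa-miR-181d-5p: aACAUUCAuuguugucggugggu
hsa-miR-181b-5p: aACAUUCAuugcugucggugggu
hsa-miR-181a-5p: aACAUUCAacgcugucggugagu
hsa-miR-181c-5p: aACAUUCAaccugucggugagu
hsa-miR-574-3p: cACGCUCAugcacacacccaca
hsa-miR-629-3p: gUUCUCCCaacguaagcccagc
All 4 members of the miR-181 family carry the seed ACAUUCA, and neither compared miRNA that is printed here carries it.

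Of 41000 probes, 30176 (22118 gene names) were well above background in Cy3 on at least 3 arrays and were tested. The labelled cell line was checked against its markers. Of 12 markers of A549 cells, 11 were well above background in Cy3 on all 15 arrays, among them the keratins KRT8 and KRT18 and the aldo-keto reductases AKR1B10 and AKR1C1, and their mean level was between 11.4 and 11.5 (log2) on the miR-181d arrays and on the others. SFTPB, a surfactant protein, was well above background on 5 of 12 other arrays and on none of the miR-181d arrays. Of the markers of other cells, 2 of 8 for fibroblasts, 4 of 8 for endothelium and 4 of 8 for leukocytes passed the filter, and none was called. PTPRC, PECAM1, COL1A2 and DCN did not pass it. On 2 arrays a channel stood apart from the rest. In Cy3, miR-181d replicate 2 lay outside the range of the other 14 arrays at 34.9% of probes, against 5.87% to 24.9% for the others. In Cy5, miR-565 replicate 1 did so at 74.8% of probes, against 2.76% to 21.2%, so results in Cy5 are given without that array as well. The 3 miR-181d arrays shared a slide with miR-565 replicate 1 only, so the slide and the antagomir can be told apart only through that array.

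In the miR-181d antagomir cells, 3 probes were lower than in the other antagomir cells and none was higher (adjusted p under 0.05, limma). These are 0.00994% and 0% of the probes tested. With the miRNA as a random block, which allows arrays of the same antagomir to resemble each other, no gene was called. None of the 3 was well above background on a miR-181d array, so each was tested only through the arrays where it was higher, and where a signal well above background was required on all 15 arrays no gene was called. They belong to ADAMTS5, an aggrecan-degrading metalloproteinase of cartilage matrix, to DEFB127, a beta-defensin of the epididymis, and to a probe that the array names only by its number, A_24_P936637. Without an adjusted threshold, 4280 probes (14.2%) had p under 0.05, of which 2083 were higher (6.9% of probes) and 2197 lower (7.28%). Without miR-181d replicate 2 that number was 1324 (4.39%), with 506 higher (1.68%) and 818 lower (2.71%), and no probe was called.

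ADAMTS5 (chr21:27215707-27215766, NCBI36) gave Cy3 levels of 0.69, 0.70 and 0.73 (log2) on the miR-181d arrays. On the other 12 arrays its level ran from 1.79 through a median of 3.24 to 3.75. All miR-181d arrays lay below all others, and the nearest was miR-574-3p replicate 3. The difference was -2.38 ± 0.32 (log2, standard error), with an adjusted p of 0.0136. The probe was not well above background on any miR-181d array and was so on 7 of 12 others, so the value in the miR-181d cells is only a bound, and against the lowest signal well above background no fold above 1 could be given. In Cy5 the same arrays gave 2.95, 1.65 and 1.66, inside the range of the others (0.32 to 3.73).

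DEFB127 (chr20:87679-87738) had Cy3 levels of 2.11, 0.65 and 1.83, against 2.85 to 4.24 (median 3.63) in the other antagomir cells. The difference was -2.01 ± 0.30 with an adjusted p of 0.0297, and the bound against background was at least 1.33-fold lower, with 10 of the 12 other arrays well above background. A_24_P936637 (chr9:46068419-46068478) had 2.10, 1.66 and 2.18, against 2.98 to 4.02 (median 3.53), a difference of -1.53 ± 0.21 with an adjusted p of 0.0136. It was well above background on no miR-181d array and on only 6 of the 12 other arrays, so this difference is not read as a fold and no bound is given. Neither overlapped with the other groups. In Cy5, without miR-565 replicate 1, ADAMTS5, DEFB127 and A_24_P936637 differed by 0.12, 0.12 and 0.05, none of them past the threshold. When the signals were corrected with normexp, which adds an offset of 50 and leaves out the scanner software's dye normalization, the differences became -0.28, -0.29 and -0.17 and none was called.

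**Figure D1:**
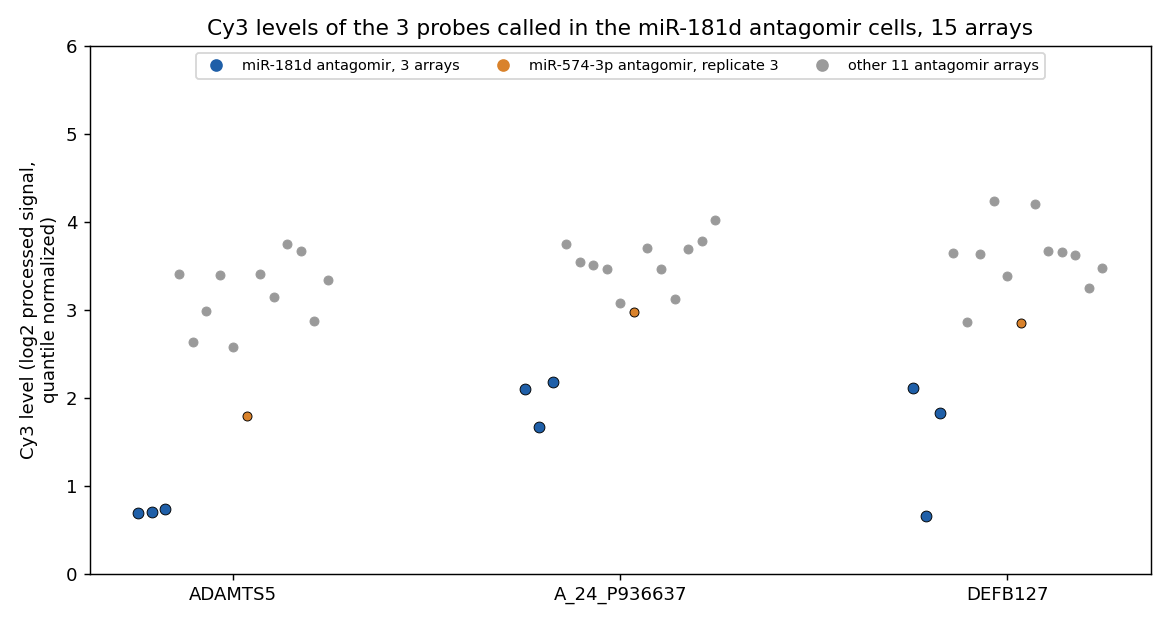
Cy3 level (log2 of the quantile normalized processed signal) of the 3 called probes on each of the 15 arrays, 1 point per array. Blue points are the 3 miR-181d antagomir arrays, which lie below the other 12 in each probe; the orange point is miR-574-3p replicate 3, the lowest of those 12 in each probe (1.79, 2.98 and 2.85).

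The count of lower probes depended on miR-574-3p replicate 3. Without it, 153 of 30176 probes were lower and 5 higher in the miR-181d antagomir cells, and 122 of the 153 had a mean level under 6 (log2). Of all 30176 probes, 3385 had a mean level up to 4 and 5722 one from 4 to 6. The median of the mean levels was 4.60 in the 153 and 7.89 over all probes. The median Cy3 level of the 153 was 4.07, 3.59 and 3.80 on the miR-181d arrays and 3.81 on miR-574-3p replicate 3. On the other 11 arrays it was between 4.64 and 5.19. The probes were chosen on these Cy3 values with that array left out, so the low miR-181d medians and the higher medians of the 11 arrays follow from the choice. Replicate 3 was not used in choosing them, but it was left out because its inclusion reduced the calls to 3. miR-574-3p replicates 1 and 2 were at 5.06 and 4.72. Between 35 and 72 of the 153 probes were not well above background on the miR-181d arrays, 58 on miR-574-3p replicate 3, and 2 to 23 on the other 11. In Cy5 the same probes had a median of 3.73 to 4.58 on the miR-181d arrays, inside the 2.27 to 5.14 of the other 11. The median Cy3 background was 42 to 43 units on the miR-181d arrays, 43 on miR-574-3p replicate 3 and 40 to 45 on the others. miR-565 replicate 1, on the slide of the miR-181d arrays, had a Cy3 median of 5.0 for these probes.

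**Figure D2:**
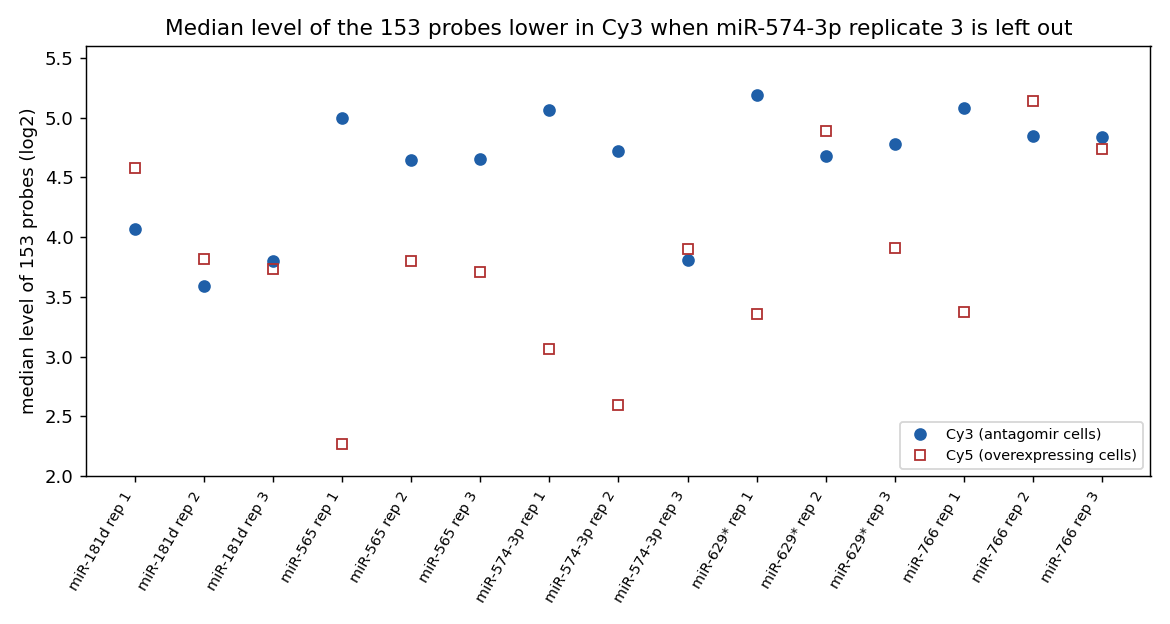
Median level (log2) over the 153 probes that were lower when miR-574-3p replicate 3 was left out, for each of the 15 arrays, filled circles in Cy3 and open squares in Cy5. The miR-181d arrays (3.59 to 4.07) and miR-574-3p replicate 3 (3.81) are low in Cy3, and the Cy5 values of the miR-181d arrays are not.

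To describe which genes this involved, the miR-181d arrays were also set against the 9 arrays of the other 3 miRNAs. The miR-574-3p arrays were left out because replicate 3 was seen to be low in the same probes, so the calls of this fit are a description and not a test. Then 114 probes were lower (0.378%) and 4 higher (0.0133%), and 103 of the 114 were among the 153. Of the called probes, 20 had a RefSeq symbol and were well above background in Cy3 on all 15 arrays, 17 lower and 3 higher. Each of these genes is given at its called probe, which need not be its brightest. At the brightest probe of each gene the fit called 110 lower and 2 higher genes, so not all of the 3 higher ones were called there. In all 20 the miR-181d arrays did not overlap with the 9 others, which follows largely from calling them on these same values. Over all 15 arrays their adjusted p ran from 0.108 to 0.331. In 14 of the 17 lower genes, at least 1 of the miR-574-3p arrays left out was as low as a miR-181d array, the exceptions being DOK6, CTNND2 and PLG. Of the 17 lower genes, CDH18 and PCDHB9 are cell adhesion proteins of the cadherin superfamily, CTNND2 is a neuronal catenin, DOK6 is an adaptor of receptor tyrosine kinases in neurons, and DRD5 is a dopamine receptor. KLRC1 is a receptor of natural killer cells, CX3CR1 is the fractalkine receptor of leukocytes, OSCAR is a receptor of osteoclasts and CEACAM3 a receptor of granulocytes. UPK3A is a protein of the bladder lining, PLG is plasminogen, made in the liver, and GSTM5 is a glutathione transferase.

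CDH18 (chr5:19508929-19508988) had Cy3 levels of 5.30, 4.70 and 5.05 in the miR-181d antagomir cells and 5.91 to 7.01 (median 6.51) on the 9 arrays. Its difference was -1.40 ± 0.21, and miR-574-3p replicate 3 was at 4.82. DOK6 (chr18:65660237-65660296) had 4.28, 3.63 and 3.98 against 4.92 to 5.74, a difference of -1.32 ± 0.18. CTNND2 (chr5:11026084-11026143) had 3.86, 3.35 and 3.66 against 4.45 to 5.16, a difference of -1.09 ± 0.16. For DOK6 and CTNND2 the miR-181d arrays also lay below all 12 other arrays, and their differences over 15 arrays were -1.51 and -1.24 with adjusted p of 0.115 and 0.126. KLRC1 had 4.07, 3.77 and 4.03 against 4.74 to 5.50, and GSTM5 had 4.31, 4.51 and 3.98 against 4.75 to 5.21. On the miR-574-3p arrays KLRC1 was at 5.17, 5.03 and 3.74 and GSTM5 at 4.51, 4.63 and 4.73.

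The Cy5 differences of the 17 lower genes, without miR-565 replicate 1, ran from -0.15 to 0.60 and 11 of 17 were above 0. With normexp their Cy3 differences were -0.81 to -0.16. None of the 20 genes kept an adjusted p under 0.05 when miR-181d replicate 2 was left out as well, a fit in which 8 probes were called. The 3 genes higher at a called probe were TADA3L (TADA3), an adaptor of histone acetyltransferase complexes, CARD8, an inflammasome protein, and C7orf44 (COA1). C7orf44 acts in cytochrome oxidase assembly. TADA3L (chr3:9800736-9800795) had 10.16, 10.30 and 10.12 against 9.68 to 10.01 on the 9 arrays, a difference of 0.35 ± 0.07. Its level on the miR-574-3p arrays was 9.93 to 9.96, also below all 3 miR-181d arrays. CARD8 was at 7.86 to 8.08 in the miR-181d cells and at 8.02 to 8.10 on the miR-574-3p arrays that had been left out, so it did not set the miR-181d cells apart from those.

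**Figure D3:**
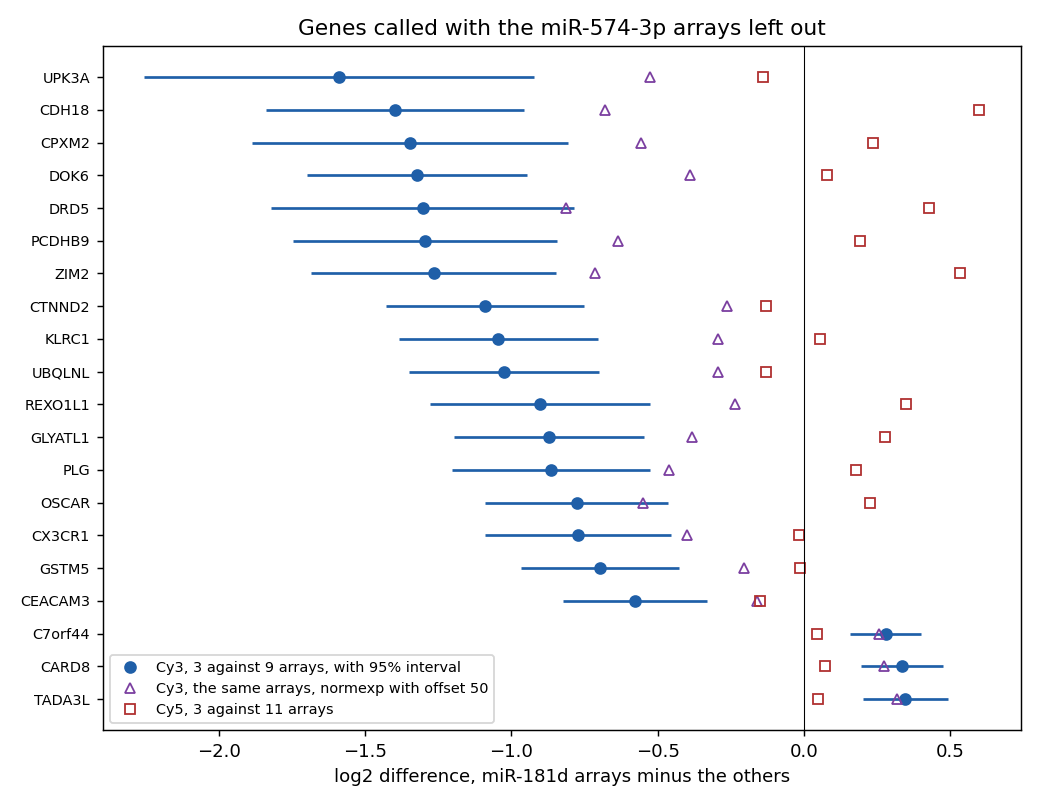
Log2 differences of the 20 genes called in Cy3 when the miR-574-3p arrays are left out. Filled circles with bars are Cy3 differences with 95% intervals (3 against 9 arrays), triangles the same arrays after normexp, and open squares Cy5 differences (3 against 11 arrays); the 17 lower genes reach from -1.59 to -0.58 in Cy3 and from -0.15 to 0.60 in Cy5.

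Over all 15 arrays, 213 probes (0.706%) lay wholly above and 171 (0.567%) wholly below the other 12 arrays in Cy3. With a RefSeq symbol and a signal well above background on every array, these were 94 higher and 74 lower genes, none with an adjusted p under 0.05. Ranked by size at the brightest tested probe of each gene, which is a choice made with the values in view, the higher side held DGKA, a diacylglycerol kinase, at 5.48, 5.51 and 5.58 against 4.46 to 5.45, a difference of 0.54 ± 0.16. AKT1S1, the PRAS40 subunit that restrains mTORC1, was at 9.64, 9.74 and 9.60 against 8.99 to 9.60, a difference of 0.38 ± 0.11. The others ranked with them were KCNIP2, ELA2 (ELANE), TMEM59L, EFCBP2 (NECAB2), PRSS27, ZAR1, CCDC78, SLC6A9, PITPNM1 and PDXDC2, with differences of 0.38 to 0.57. Their adjusted p ran from 0.136 to 0.333. Sizes depended on the processing. Over the alternatives KCNIP2 ran from 0.07 to 0.66, ELA2 from 0.13 to 0.62, PRSS27 from 0.11 to 0.52, DGKA from 0.19 to 0.58 and AKT1S1 from 0.14 to 0.41. On the lower side, after DOK6 and CTNND2, came CCR3, a chemokine receptor of eosinophils (-1.20), PDGFRA, a receptor of platelet-derived growth factor (-0.97), and PLG (-0.91). PDGFRA was at 3.20, 3.86 and 3.80 against 4.02 to 5.0, and its difference ran from -1.09 to -0.21 over the alternatives. KRTAP10-10, KRTAP4-14, OR52K2, IFNA4, CD6, TMCC3 and DLG2 followed, with differences of -0.63 to -0.43.

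A fit with 1 coefficient per miRNA, in which only the spread between replicates counts as error, called 623 probes (2.06%), 347 higher (1.15%) and 276 lower (0.915%). In 551 of the 623 the miR-181d mean lay outside the other 4 group means, which follows in part from calling them on these values. In 266 of the 623, the miR-574-3p antagomir cells and not the miR-181d cells were farthest from the median of the 5 group means, and in 273 the miR-181d cells were. FGFRL1, an FGF receptor-like protein with the smallest p in this fit, is one where the miR-574-3p cells were farthest. Its Cy3 level was 8.78, 8.78 and 8.82 in the miR-181d antagomir cells, 6.24, 6.02 and 6.05 in the miR-574-3p antagomir cells and 8.43 to 8.81 in the other 3 groups. The miR-181d cells did not stand apart in it. Of the 484 genes called, 128 had miR-181d arrays that did not overlap with the others. Over all probes, 0.706% lay wholly above and 0.567% wholly below the others. The 484 genes were called on the same Cy3 values, so a larger share among them follows in part from the choice. The fit passed DGKA (adjusted p = 0.00694), AKT1S1 (0.00206), TADA3L (0.00236) and SLC4A2, an anion exchanger (0.00496), and these 4 passed also without miR-181d replicate 2 (0.0487, 0.0221, 0.0212 and 0.0400). SLC4A2 was at 9.65, 9.67 and 9.59 in the miR-181d antagomir cells and at 9.12 to 9.58 in the others. Their Cy5 differences, without miR-565 replicate 1, were -0.06, 0.01, 0.05 and 0.04. Without miR-181d replicate 2 the fit called 115 of 30175 probes in all, 58 higher and 57 lower. Of the genes named above, PDXDC2 (adjusted p = 0.00852), KRTAP4-14 (0.0221) and PDGFRA (0.0334) also passed both with and without that replicate. KCNIP2 (0.319), TMEM59L (0.144), CCDC78 (0.322) and DOK6 (0.0925) passed with it and not without it.

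Genes that have been reported as miR-181 targets are the ones the question of a release from miR-181d is about. Of 38 such genes, 33 could be tested, and none was called, beside 0.00994% of all probes. Their median difference was -0.04 (log2), beside a median of -0.00066 over all genes, with 11 above 0 and 22 below. At unadjusted p under 0.05, none was higher and 3 were lower, beside 6.9% and 7.28% of all probes. Without miR-181d replicate 2 the median was -0.02 and none was higher or lower, beside 1.68% and 2.71% of all probes in that fit. In Cy5 without miR-565 replicate 1, the cells given miR-181d, the median was -0.02 as well, with none higher and 5 of the 33 lower, beside 4.34% and 6.33% of all probes. No target had miR-181d arrays wholly outside the range of the others, which is near the shares of all probes (0.706% above and 0.567% below).

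The largest differences among them went both ways. ATM, the DNA damage kinase, was at 6.63, 7.0 and 6.40 in the miR-181d antagomir cells and at 5.52 to 6.97 in the others, a difference of 0.50 with a 95% interval of -0.01 to 1.0. PLAG1, a zinc finger transcription factor, was at 5.40, 5.13 and 5.64 against 5.15 to 6.25, a difference of -0.47 (-0.82 to -0.12, adjusted p = 0.279). HSPA5, the endoplasmic reticulum chaperone BiP, was at 11.91, 11.56 and 11.97 against 11.84 to 12.29, a difference of -0.26 (-0.43 to -0.09, adjusted p = 0.238). Its Cy5 difference, in the cells that received miR-181d, was -0.21 without miR-565 replicate 1, in the same direction, and without miR-181d replicate 2 its Cy3 difference was -0.13. A dimmer second HSPA5 probe, also well above background on all arrays, differed by 0.06, so the probes of this gene disagree. CDX2, an intestinal transcription factor, differed by 0.27, XIAP, an inhibitor of apoptosis, by -0.19, and TGFBR1, a TGF-beta receptor, by 0.14. Against miR-565 replicate 1 alone, on the same slide, CDX2 was at -0.0071 and TGFBR1 at -0.11, and without miR-181d replicate 2 TGFBR1 was at 0.08. HMGB1 (-0.12) was the third target with p under 0.05. BCL2, BCL2L11, DUSP6 and SIRT1 differed by -0.01, -0.08, -0.02 and -0.08.

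**Figure D4:**
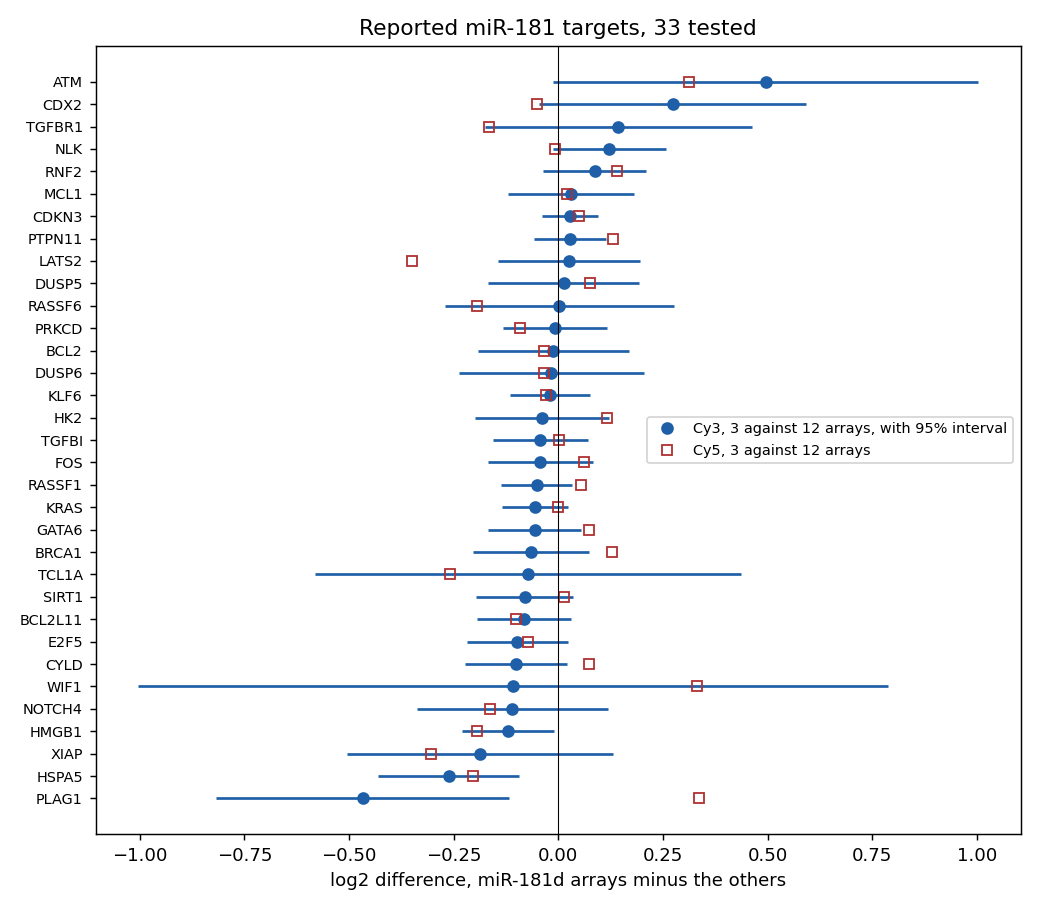
Log2 differences of the 33 tested genes reported as miR-181 targets, in order of the Cy3 value. Filled circles with bars are Cy3 differences with 95% intervals and open squares Cy5 differences (3 against 12 arrays); 22 of the 33 Cy3 values lie below 0 and none was called.

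The match to the seed was also looked up in the array's probes, which are 60 bases of each message. The letters TGAATGT, on the strand of the message, stood in 260 tested probes (0.862%), and the same-length letters of the other strand, ACATTCA, in 200 (0.663%). The median Cy3 difference of the 260 was -0.01, and 12 were higher and 22 lower at unadjusted p under 0.05, beside 6.9% and 7.28% of all probes. None was called, and 2 lay wholly above the other arrays and none below, beside 0.706% and 0.567% of all probes. Of the 200 probes with the other strand's letters, 12 were higher and 15 lower, and 2 lay wholly above and 2 below. The counts for the match do not stand out from these. The 2 above, and the only reported target whose probe holds the letters, are shown to give the match in its context, with the match in capitals and 10 bases on each side.
U2AF1L4: attgaagagaTGAATGTgtgcgacaac
NUPL1: attgaaatctTGAATGTattgaatctg
RASSF1: atgaagtgcgTGAATGTatgtaatgtg
U2AF1L4 (chr19:40927077-40927136), a splicing factor, differed by 0.27 in Cy3 and 0.06 in Cy5, NUPL1 (NUP58, chr13:24808273-24808332), a nucleoporin, by 0.20 and 0.17, and RASSF1 (chr3:50342324-50342383), a RAS association protein, by -0.05 and 0.05. Without miR-565 replicate 1 the Cy5 difference of NUPL1 was 0.03. The rest of each message was not searched.

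None of the members of 24 lists was called, beside 0.00994% of all probes. The counts of members below are at unadjusted p under 0.05, which 6.9% of all probes met as higher and 7.28% as lower, and many of them are near those shares. Without miR-181d replicate 2 the shares of all probes were 1.68% and 2.71%, so counts fell there over all probes too. Of 24 genes of sterol synthesis, 6 were lower and none higher, with a median of -0.07. Among these were the enzymes HMGCS1 (-0.14), ACAT2 (-0.10) and SC5DL (-0.14), the sterol sensor partner INSIG1 (-0.13) and the sterol carrier STARD4 (-0.18). With its probes averaged SC5DL was at 0.048, so its direction depends on the probe. The probe that was higher (0.37) was dim, at 3.72 in the miR-181d cells and 3.35 in the others, and the brighter ones were at -0.14 and -0.08. STARD4 was at 7.14, 6.85 and 7.08 against 7.0 to 7.36, so that only replicate 2 lay below the others. Without replicate 2 the median of the list was -0.02 and 1 gene was lower, beside 2.71% of all probes in that fit. Of 28 genes of the unfolded protein and ATF4 response, 2 were higher and 5 lower. The higher ones were TRIB3, a pseudokinase induced by ATF4 (16.20, 16.36 and 16.25 against 15.99 to 16.22, a difference of 0.19), and PHGDH, of serine synthesis (0.13). The lower ones were HSPA5, the disulphide isomerases PDIA4 (-0.16) and PDIA6 (-0.14), DNAJB9 (-0.13) and CTH (-0.11). PDIA6 was at 14.03, 13.91 and 14.05 against 14.06 to 14.20, wholly below, and the list's median was -0.02. Without replicate 2 the list had 1 higher and 2 lower, with PDIA4 at -0.05 and DNAJB9 at -0.04.

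Among 21 inflammatory genes, 5 were higher and 1 lower, NFKB2 (0.29) and RELB (0.26), subunits of NF-kappaB, with NFKB1 (0.09), LIF (0.15) and TNFAIP2 (0.12) above and SOD2 (-0.10) below. With its probes averaged SOD2 was at 0.13. That average holds a dim probe (0.36) that was well above background on only 1 of 3 miR-181d arrays and 5 of 12 others. RELB was at 11.48, 11.87 and 11.40 against 11.16 to 11.59, again with replicate 2 outside. Without replicate 2 none of the 21 had p under 0.05, in a fit where 1.68% of all probes were higher and 2.71% lower. Of 17 genes of ERK feedback, 3 were higher, ETV4 (0.25), PHLDA1 (0.21) and DUSP4 (0.11), and none lower. Without replicate 2 only 1 of the 17 was higher, with PHLDA1 at 0.12 and DUSP4 at 0.06. ETV4, an ETS factor induced by ERK, was at 7.78, 7.81 and 7.69 against 7.31 to 7.78. Against miR-565 replicate 1 on the same slide, ETV4 and DUSP4 differed by -0.021 each, which rests on 1 array and is within their standard errors. Of 40 splicing factors, 2 were higher (SF3B4 and SNRPB) and 5 lower (HNRPK, SFRS3, RBM39, HNRPF and HNRPM), with a median of -0.05 in Cy3 and 0.06 in Cy5, or 0.03 in Cy5 without miR-565 replicate 1. HNRPK was at 13.11, 12.60 and 13.08 against 12.99 to 13.37. Without replicate 2 the count was 1 higher and 0 lower. Of 43 respiratory chain genes, 4 were higher and none lower, and of 25 chaperones 1 was higher and 3 lower. Without replicate 2 both counts were 0 higher and 0 lower. Cytosolic ribosomal proteins (4 higher and 3 lower of 48), mitotic genes (0 and 1 of 36) and DNA replication genes (1 and 3 of 35) were within 0.02 of 0 in their medians.

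**Figure D5:**
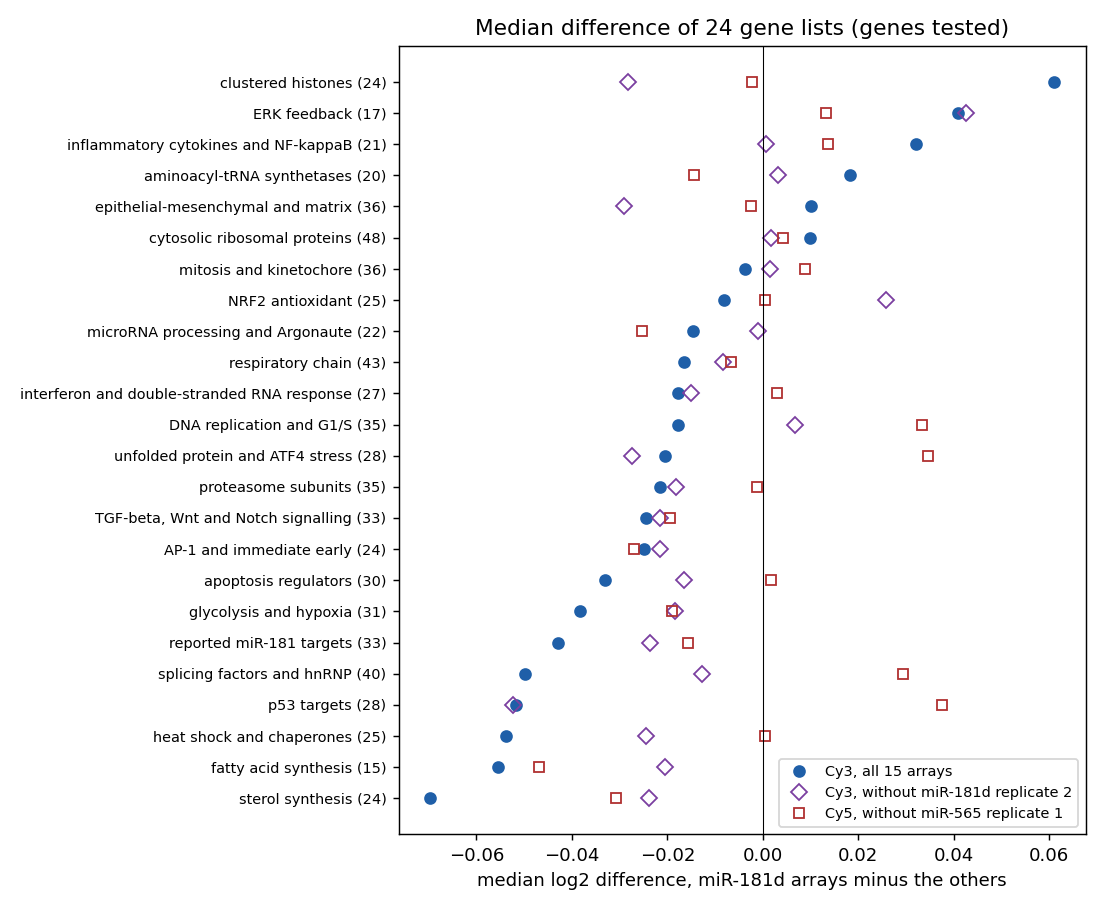
Median log2 difference of each of the 24 gene lists, with the number of genes tested in brackets. Circles are Cy3 over all arrays, diamonds Cy3 without miR-181d replicate 2 and squares Cy5 without miR-565 replicate 1; the Cy3 medians lie between -0.07 and 0.06, and for histones the median changes from 0.06 to -0.03 without that replicate.

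In the fit with 1 coefficient per miRNA, 13 of 679 list genes passed, which is 1.91% beside 2.06% of all probes. FOSL1, an AP-1 subunit, was at 6.87, 7.01 and 6.64 in the miR-181d antagomir cells and at 5.50 to 6.83 in the others (0.58, adjusted p = 0.00297), and the histone gene HIST1H2BD at 11.93, 12.29 and 11.93 against 11.91 to 13.03 (-0.38, 0.0113). These ranges overlap. ETV4, TGFB1, FASN, NFKB2 and DGCR8, the partner of Drosha, were higher, by 0.22 to 0.29, and THBS1, IFIT1 and TP53INP1 lower, by 0.18 to 0.34. Without miR-181d replicate 2, these 8 and PSME2 did not pass (adjusted p from 0.0712 to 0.362), while FOSL1, HIST1H2BD, ERH and NDUFB3 did. THBS1, the matrix protein thrombospondin, was at 8.53, 8.48 and 8.53 against 8.61 to 8.81, and IFIT1, an interferon-induced RNA-binding protein, at 8.16, 8.23 and 8.28 against 8.31 to 8.57, both wholly below the others. For PSME2, NDUFB3 and ERH the fitted differences of -0.20, -0.27 and -0.42 came with high values on some other arrays. ERH was at 13.63, 13.54 and 13.61 against a median of 13.72 and a highest value of 14.96, NDUFB3 at 13.14, 13.24 and 13.07 against 13.18 and 14.25, and PSME2 at 15.05, 14.99 and 14.98 against 15.08 and 15.67.

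In the Cy5 channel of the same arrays, which held the cells given miR-181d, no probe was called (0% in each direction). With all arrays 1150 probes had unadjusted p under 0.05 (3.81%), and without miR-565 replicate 1 there were 3220, of which 1311 were higher (4.34%) and 1909 lower (6.33%), with a smallest adjusted p of 0.242. The difference between the channels, tested array by array, was past the threshold at no probe with all arrays (1795 at unadjusted p under 0.05), and at 1, lower in Cy3, without miR-565 replicate 1 (0.00331%). That probe, AY010112, had Cy3 levels of 2.24, 2.08 and 1.17 against 2.12 to 3.29, which overlap, and Cy5 levels of 3.33, 3.01 and 2.47 against 2.55 to 3.27. It had an adjusted p of 0.00493, but was not well above background in Cy3 on any miR-181d array and on 6 of the 12 others, so its size is not given.

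Without miR-565 replicate 1, 6 probes lay outside the other arrays the same way in both channels, 3 above and 3 below, and none lay opposite. In Cy5 alone 160 probes lay above (0.53%) and 194 below (0.643%), and in Cy3 the shares were 0.706% and 0.567%. APPL1, an adaptor of endosomal signalling, was at 9.79, 9.75 and 9.92 in Cy3 against 9.95 to 10.31, and at 9.49, 9.83 and 9.85 in Cy5 against 9.92 to 10.24. EME2, a subunit of a DNA repair nuclease, was at 6.82 to 6.84 in Cy3 against 6.37 to 6.77, and at 6.65 to 6.71 in Cy5 against 6.27 to 6.62. AIRE and ALDH9A1 were the other 2 below, and C14orf65 and KIAA1922 the other 2 above. AIRE was at 2.75, 2.62 and 2.73 in Cy3 on the miR-181d arrays. The lowest signal well above background there was 2.81 to 3.32, so its level is only a bound. Both channels of an array share its slide and its hybridization, and their part in this was not tested.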

How the data were processed

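mRNA was measured on 15 dual-colour Whole Human Genome arrays (G4112F), 3 for each of 5 miRNAs, with Cy5 on the overexpressing and Cy3 on the antagomir cells and no dye swap. The deposited files hold intensity values per spot that the authors extracted with Feature Extraction (9.5.3.1 in the file headers, 9.5.3 in the submitters' processing notes); the processed signals are background-subtracted and dye-normalized by LOWESS within each array, so a Cy3 value depends in part on the Cy5 channel. Gene names and coordinates are those of the array files (NCBI36), and current symbols and miRNA sequences come from RefSeq (GRCh38.p14); positions within exons or introns were not read, since no genome of that build was used; 64.7% of tested gene names matched.

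Control spots (1639 of 45015 per array) and outlier spots were left out, no spot was saturated, spots of a probe were averaged as log2 values, and each channel was quantile normalized. Probes well above background in Cy3 on at least 3 arrays were tested with limma 3.58.1 (R 4.3.3; intensity trend), miR-181d against the other 12 arrays, with Benjamini-Hochberg adjustment over all of them. The same fit was run on Cy5 and on the Cy3 minus Cy5 difference of each array. In gene counts, gene lists, targets and the ranking by size, a gene was read at its brightest tested probe. Genes named from counts of probes were read at that probe, which need not be the brightest. Standard errors come from the fit, and the number of arrays limits the precision. A bound sets a probe against the lowest signal well above background on the array.

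Named genes were the 12 largest differences each way with an adjusted p under 0.05, no overlap, a signal well above background on every array and a RefSeq symbol, which none met; list members called; and the 6 reported miR-181 targets with the largest differences. Where the text names others, they were chosen after their values were seen. Groups, gene lists and targets were chosen with earlier results of these data known. Alternatives were normalization, filters, blocks for slide, miRNA and replicate number, array weights and leaving out each array. The fits were tested on simulated data, of which no result is given here. The authors' series table was not used.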

Additional observations from a re-analysis of the deposited data

How the results depend on the processing

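The count of genes called in Cy3, all lower, was 3 also with median or 75th percentile scaling, with outlier spots kept and with a gene's probes averaged. It was 2 without an intensity trend and with slide as a random block. DEFB127 kept its call in 14 alternatives and lost it in 16. ADAMTS5 and A_24_P936637 each kept theirs in 23 and lost it in 7. Changed and lower genes were 0 with normexp (2706 at unadjusted p under 0.05), 0 where a signal well above background was required on all 15 arrays (2828) and 0 with the miRNA as a random block (1370). Without a filter on dim probes 6 changed, 4 of them higher. With 1 coefficient per miRNA 484 changed (245 higher, 239 lower), with array weights 249 (49 and 200), within slide 1 there were 6 (1 and 5), and with the miR-574-3p arrays left out, an alternative added after seeing the data, 112 (2 and 110). With the replicate number as a block 57 changed (2 higher, 55 lower). The deviations of same-numbered arrays correlated over 0.1 in 15 of 30 pairs (from -0.21 to 0.33) and not in every pair, so the numbers were not taken to pair the samples. Leaving out 1 array gave 0 to 147 changed genes, 0 to 1 higher and 0 to 146 lower. Most of that range came from miR-574-3p replicate 3 (147), and without miR-181d replicate 1, 2 or 3 there were 1, 0 and 0.

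In Cy5, no gene was called with all arrays, 4 were without a filter, and 14254 with slide as a fixed block, 12434 with slide as a random block and 10029 within slide 1. The channel difference gave 0 with all arrays, 3 without a filter, 12379, 8825 and 10274 in those slide fits and 41 with array weights. Leaving out 1 array gave 0 in Cy5 and 0 to 1 for the channel difference. The slide fits set the miR-181d arrays mainly against miR-565 replicate 1, whose Cy5 channel stood apart.

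Among single genes, 10 of 2135 values changed sign. With slide as a block, and within slide 1, CDX2 was at -0.0071, DUSP4 at -0.021, ETV4 at -0.021 and TGFBR1 at -0.11. With a gene's probes averaged SC5DL was at 0.048 and SOD2 at 0.13, and each average holds a dim probe that was higher. The cause was not tested. Probes near background, where the 3 calls lie, limit the comparison, since their level there is a bound.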
